A study of Mus musculus with 8 samples.

Results

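Blastoids are aggregates of stem cells grown as a model of the blastocyst, and the comparison described here sets blastoids picked on day 5 of culture against blastoids harvested on day 2. Of the 8 mouse libraries of the series, 4 belong to it, 2 on each side, and they were chosen by their day of culture. The labels of the day 2 libraries name that day. For the day 5 libraries, the day comes only from the protocol text that the samples share. All 4 descend from E14 mouse embryonic stem cells that had been converted over 5 passages into expanded potential stem cells (EPSC), a state held by a cocktail of LIF, CHIR99021, PD0325901, JNK Inhibitor VIII, SB203580, A-419259 and XAV939. The day 2 libraries came from EPSC transfected with DharmaFECT1 and a non-targeting siRNA (siNT) or an siRNA against Nr1h2 (siNr1h2), and were harvested 48 hours after transfection. The day 5 libraries came from blastoids picked by hand and labelled as derived from EPSC treated with T09 (T0901317, a compound that activates the liver X receptors, LXR). They are labelled Type I (title Gd) and Type III (title Bad), and neither a dose nor a duration of T09 is given for them. Both sides were seeded at about 5 cells per microwell in medium with FGF4, heparin, CHIR99021 and Y-27632, and were then fed medium with FGF4, heparin, CHIR99021, BMP4 and A83-01. Day of culture, T09 pre-treatment, siRNA transfection and picking by hand differ together between the sides and cannot be told apart.

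A blastocyst holds the epiblast, which expresses the pluripotency network, the primitive endoderm, which is specified under FGF signalling and later gives rise to visceral and parietal endoderm, and the trophectoderm, a transporting epithelium that pumps the cavity and founds the placenta. Visceral endoderm is known for taking up nutrients by endocytosis and for secreting lipoproteins and carrier proteins as the liver does. Parietal endoderm is known for laying down the thick basement membrane of the yolk sac.

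Levels are given as CPM, the counts of a gene scaled to library size with TMM factors. Pairs of values are given as Type I then Type III for day 5, and as siNT then siNr1h2 for day 2. Total counts of the 4 libraries ran from 24666260 to 37181849, and a gene with 0 counts could still have had up to 0.0762 to 0.114 CPM, the level of 3 counts. No group had a replicate. The libraries of a side are therefore not repeats of 1 condition, nothing in the labels names separate cultures, and each p-value measures the day difference against the spread between Type I and Type III and between siNT and siNr1h2. A fit without 1 library takes its spread from the other side alone. Calls gained or lost in such a fit can therefore follow from which spread is left. An exact permutation test of 2 libraries against 2 cannot go below p = 0.333, so the only tests given are from edgeR's quasi-likelihood fit across all genes with Benjamini-Hochberg adjustment, and a gene is said to have risen or fallen on day 5 when its adjusted p was under 0.05. Nr1h2, the target of the knockdown, stood at 37.7 CPM in the siNr1h2 library and 53.9 CPM in the siNT library, and at 52.6 and 52.7 CPM on day 5.

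Day 5 and day 2 blastoids differed across a large part of the transcriptome. Of 15070 genes tested, 7041 passed (46.7%), with 3878 higher on day 5 (25.7%) and 3163 lower (21%), and all 7041 were ordered one way in all 4 pairs of a day 5 and a day 2 library. The shares of 25.7% and 21% are the background for the counts of every gene list below. The median log2 change of all genes was 0.03. Scaling by library totals in place of TMM moved this median to -0.11 and turned the split to 3241 higher and 4067 lower, so that 44.3% rather than 55.1% of the called genes were higher. The lower count fell to 1766 without siNT and to 1884 without siNr1h2. Without any test, 1618 of the 14803 genes with at least 20 counts in 1 library were at least 2-fold higher on day 5 in all 4 pairs (10.9%) and 1334 were at least 2-fold lower in all 4 (9.01%), a number that was 2179 without Type III. At any size, 5958 genes were higher in all 4 pairs (40.2%) and 5599 were lower (37.8%). The fit put 830 genes more than 4-fold higher and 759 more than 4-fold lower.

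The distance between days was larger than that between the libraries of a side. Between Type I and Type III, the median gene differed by 0.27 on the log2 scale and 9.96% of genes differed at least 2-fold. Between siNT and siNr1h2 these values were 0.12 and 5.15%. In the 4 pairs across days the median ran from 0.55 to 0.65 and the share from 27.6% to 34.4%, and both pairs with Type I were further apart than both pairs with Type III.

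**Figure D1:**
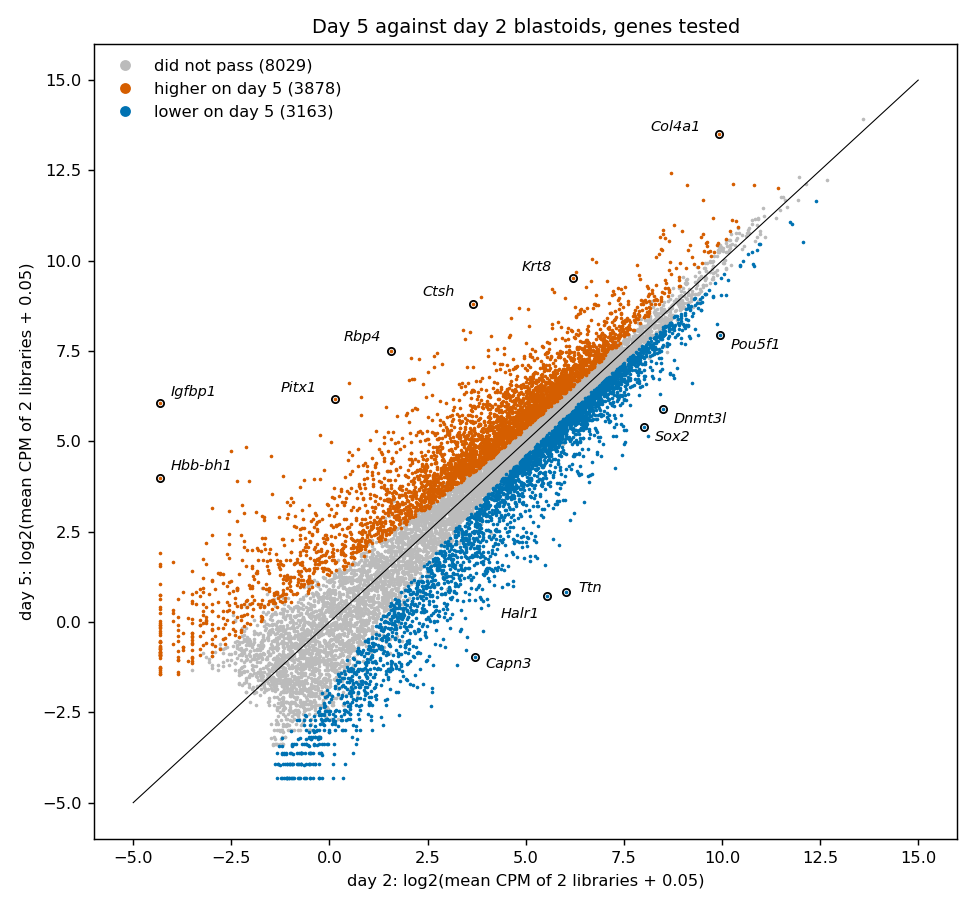
Mean level of each of the 15070 tested genes on day 2 (x axis) and day 5 (y axis), as log2 of the mean CPM of 2 libraries plus 0.05. Orange points are the 3878 genes that were higher on day 5 and blue points the 3163 that were lower. The line marks equal levels, and Igfbp1, Rbp4 and Col4a1 lie above it while Ttn, Halr1 and Sox2 lie below.

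The 12 genes with the largest consistent rises were of several kinds, secreted proteins among them. Igfbp1, a secreted binding protein of insulin-like growth factors, had 89.05 and 44.7 CPM on day 5 and 0 counts in both day 2 libraries, which makes it at least 391-fold higher against the floor of 3 counts in each day 2 library. Apoa2, a lipoprotein component, had 14.1 and 15.8 CPM on day 5 and 0.152 and 0.229 CPM on day 2. Rbp4, the plasma carrier of retinol, had 222 and 138 CPM on day 5 against 3.35 and 2.44 CPM on day 2. No day 5 value of these genes came near a day 2 value, a separation that the rule naming them selects for. Rbp4 rose by 5.93 ± 0.29 (log2, SE; edgeR, Benjamini-Hochberg adjusted p = 3.13e-05), and Apoa2 by 6.31 ± 0.33 (edgeR adjusted p = 3.83e-05). Nepn was at 4.62 and 2.77 CPM on day 5 and at 0 counts on day 2, at least 24.2-fold higher, and Serpina10, a secreted protease inhibitor, was at 4.26 and 1.76 CPM against 0 counts, at least 15.4-fold higher.

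The transcription factor Pitx1 was at 91.4 and 52.05 CPM on day 5 and at 1.14 and 0.953 CPM on day 2, a rise of 6.08 ± 0.34 (log2, SE; edgeR adjusted p = 4.15e-05). The axon guidance receptor Robo2 rose by 7.5, the secreted Wnt antagonist Frzb by 7.43, the myosin light chain Myl3 by 6.42, Mamld1 by 6.58 and Scel by 7.39 on the log2 scale. Of these, Frzb and Scel had 0 counts in the siNr1h2 library, so their fitted changes depend on the fit's prior. The rule also named the embryonic globin Hbb-bh1, which is described with the blood markers. In Igfbp1, Robo2, Frzb, Pitx1 and Rbp4 the Type I library was the higher of the day 5 pair, and in Apoa2 the Type III library was.

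Promoters of 9 of these 12 genes were found in RefSeq, in a table on GRCm38.p6, which is a later build than the mm9 of the counts. They were searched on both strands, from 250 bases before the annotated start up to it, for the GATA factor motif AGATAA and the forkhead (FOX) motif TGTTTAC, because factors of both families (Gata4, Foxa2) are named among the endoderm regulators. AGATAA was present in 1 of the 9 and in 10.3% of 27025 promoters, and TGTTTAC in 3 of the 9 and in 3.09% of all. The 12 genes with the largest consistent falls, named at the end, gave 2 of 11 promoters with TGTTTAC and 0 of 11 with AGATAA, so TGTTTAC was found in both directions of change. The matching promoters among the falls, those of Clca3b and Smtnl1, are not shown. Krt8, an epithelial keratin that also rose, is not among the 12 and was picked as an example. Promoters of other epithelial genes that rose, Krt18, Krt7, Cldn6, Cldn7 and Ocln, held neither motif. The matching promoters of the rises are shown with that of Krt8, with the matched letters in capitals. Each reads 5′ to 3′ on the strand of its gene and ends at the base before the start, and GTAAACA is TGTTTAC read from the other strand. Nepn lies on the plus strand at chr10:52391358-52391607, Apoa2 on the plus strand at chr1:171224804-171225053, Rbp4 on the minus strand at chr19:38125322-38125571 and Krt8 on the minus strand at chr15:102004343-102004592.
Nepn: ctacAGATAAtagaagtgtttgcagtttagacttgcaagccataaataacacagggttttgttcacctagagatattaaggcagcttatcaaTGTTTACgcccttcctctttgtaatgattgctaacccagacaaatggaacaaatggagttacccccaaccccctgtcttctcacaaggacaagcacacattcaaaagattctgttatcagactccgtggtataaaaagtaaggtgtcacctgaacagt
Apoa2: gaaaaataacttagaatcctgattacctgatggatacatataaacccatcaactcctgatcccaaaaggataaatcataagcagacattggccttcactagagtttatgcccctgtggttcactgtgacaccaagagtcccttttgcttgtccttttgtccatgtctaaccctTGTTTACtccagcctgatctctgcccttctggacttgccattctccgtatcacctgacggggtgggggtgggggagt
Rbp4: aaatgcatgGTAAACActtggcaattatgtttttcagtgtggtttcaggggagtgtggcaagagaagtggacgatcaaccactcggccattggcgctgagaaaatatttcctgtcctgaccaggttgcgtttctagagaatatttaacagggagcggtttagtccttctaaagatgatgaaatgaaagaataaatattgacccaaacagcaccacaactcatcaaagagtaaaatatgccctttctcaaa
Krt8: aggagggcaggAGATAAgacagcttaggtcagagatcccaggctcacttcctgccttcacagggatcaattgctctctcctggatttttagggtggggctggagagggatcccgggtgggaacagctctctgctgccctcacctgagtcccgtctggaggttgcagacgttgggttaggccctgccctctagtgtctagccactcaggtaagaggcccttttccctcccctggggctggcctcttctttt
Apoa2 and Rbp4 each have 2 annotated starts, of which 1 is shown. A match describes these letters and shows no bound factor, and the other 6 of the 9 promoters held neither motif.

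Primitive endoderm regulators rose as a group with Gata6 set apart. Of 16 tested, 14 were higher on day 5 and 1 was lower, beside 25.7% and 21% of all genes, with a median log2 change of 1.61 against 0.03 for all genes. Gata4, which follows Gata6 in the lineage, had 523 and 372 CPM on day 5 and 109.6 and 106 CPM on day 2, a rise of 2.06 ± 0.17 (log2, SE; edgeR adjusted p = 0.00016). Sox17, a later endoderm factor, had 208 and 152 CPM on day 5 against 38.6 and 37.2 CPM on day 2 (edgeR log2 change 2.25 ± 0.17, adjusted p = 0.000104). In neither gene did the days overlap, as held for every gene that passed.

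Gata6, the first factor of the lineage, had 87.2 and 69.9 CPM on day 5 and 92.8 and 95.1 CPM on day 2. Its day 5 values lay below both day 2 values, and the difference of -0.26 ± 0.14 (log2, SE) did not pass (edgeR adjusted p = 0.158). With library totals the difference passed, at -0.40, and without Type I it was -0.43. Cited1, a transcriptional coregulator, rose by 3.79 on the log2 scale, from 23.7 and 25.7 CPM to 387 and 294 CPM. The hedgehog ligand Ihh rose by 3.24, the receptor Pdgfra by 1.98, the forkhead factor Foxa2 by 2.06, the endocytic adaptor Dab2 by 1.83, the nuclear receptor Hnf4a by 1.39 and Sox7 by 0.64, the last a call lost without siNr1h2. The 1 member that fell was Grb10, an imprinted growth factor receptor adaptor. In EPSC, Gata6 was at 8.51 CPM, Gata4 at 5.58 CPM and Sox17 at 0.471 CPM, so each was already far above the stem cell level on day 2. Type I was above Type III in 14 of the 16 members.

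Genes of visceral endoderm function were higher as well, with a larger median. Of 23 tested, 20 were higher and 1 was lower, with a median of 2.89, and 18 were at least 2-fold higher in all 4 pairs, beside 10.9% of all genes. Ttr, the thyroid hormone carrier, had 176 and 174 CPM on day 5 and 7.39 and 5.76 CPM on day 2, a rise of 4.72 ± 0.16 (log2, SE; edgeR adjusted p = 1.7e-05). Afp, the fetal serum protein, had 18.6 and 12.7 CPM on day 5 and 1.04 and 0.381 CPM on day 2. Apob, the scaffold of large lipoproteins, had 972 and 1028 CPM against 125 and 94.9 CPM. The rise was 4.38 ± 0.43 for Afp and 3.19 ± 0.17 for Apob. Mttp, which loads lipid onto apolipoprotein B, rose by 2.59, the fibrinogen chain Fgb by 4.75 and the chloride channel protein Clic6 by 3.60.

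The endocytic receptors moved unequally. Amn, the membrane anchor of the cubilin complex, rose by 2.49 ± 0.16 (log2, SE), from 54.03 and 47.2 CPM to 318 and 249 CPM. Cubn, its ligand-binding partner, had 1697 and 1413 CPM on day 5 and 1125 and 1070 CPM on day 2, a rise of 0.50 ± 0.15 (edgeR adjusted p = 0.0254) that did not pass with library totals or without either day 2 library. Lrp2, the large receptor megalin, had 936 and 909 CPM on day 5 and 877 and 869.5 CPM on day 2, a difference of 0.08 ± 0.12 that did not pass (edgeR adjusted p = 0.628) and turned to -0.06 with library totals. In EPSC the levels were 4.87 CPM for Cubn, 217 CPM for Lrp2 and 0.393 CPM for Amn. The member that fell was Hhex, a homeobox factor of anterior visceral endoderm, a call lost without either day 2 library. In these bulk libraries fewer cells of a type and less RNA per cell cannot be told apart, for these and for all later groups.

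**Figure D2:**
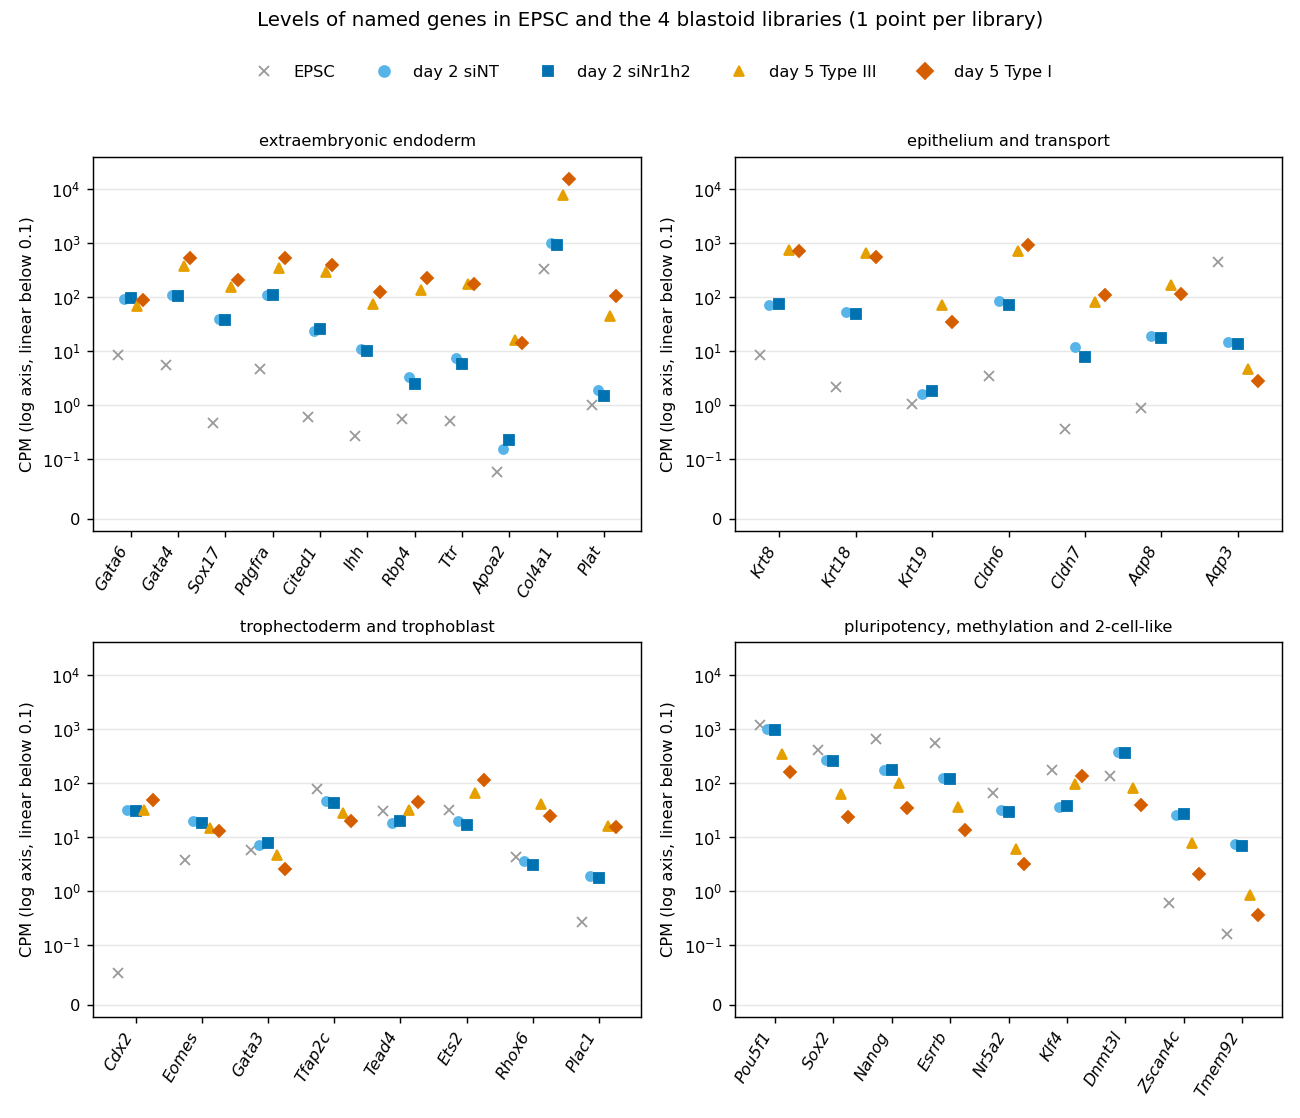
Level of named lineage genes in EPSC (cross), in the 2 day 2 libraries (blue) and in the 2 day 5 libraries (orange), 1 point per library, in CPM on a log axis that is linear below 0.1. Gata4, Sox17, Rbp4, Ttr, Krt8 and Krt18 are higher on day 5 than on day 2, Gata6 and Cdx2 did not pass the test, and Sox2, Nr5a2 and Dnmt3l are lower.

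Basement membrane genes and markers of parietal endoderm rose as well, and here Type I stood above Type III. Of 19 tested, 16 were higher and 1 was lower, with a median of 1.67. Col4a1, a collagen IV chain, had 15510 and 7700 CPM on day 5 and 992 and 943 CPM on day 2. Its partner chain Col4a2 had 7490 and 3465 CPM on day 5 and 430.5 and 401 CPM on day 2. Type I was the higher library for both chains, and the days did not overlap, as in all genes that passed. Col4a1 rose by 3.58 ± 0.33 (log2, SE; edgeR adjusted p = 0.00022) and Col4a2 by 3.72 ± 0.35 (edgeR adjusted p = 0.000241).

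Plat, the tissue plasminogen activator secreted by parietal endoderm, had 104 and 45.5 CPM on day 5 and 1.93 and 1.45 CPM on day 2, a rise of 5.44 ± 0.43 (edgeR adjusted p = 0.000128). Pth1r, the parathyroid hormone receptor and a parietal endoderm marker, rose by 3.86 on the log2 scale, the matrix glycoprotein Sparc by 2.99, and the laminin chains Lama1 and Lamb1 by 2.36 and 2.23. Col18a1, another basement membrane collagen, went the other way: it had 144 and 143 CPM on day 5 and 350.2 and 346 CPM on day 2, and fell by 1.28 ± 0.11 (edgeR adjusted p = 0.000168). Summed over the list, the level was 41710 CPM in Type I and 23570 CPM in Type III, against 5891 and 5864 CPM on day 2, and 18 of the 19 tested members were higher in Type I.

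Epithelial keratins, tight junction genes and cavity transport genes rose in most cases. Of 25 tested, 17 were higher and 1 was lower, with a median of 1.79, and 15 were at least 2-fold higher in all 4 pairs. Krt8 had 717 and 754 CPM on day 5 and 71.1 and 75.4 CPM on day 2, a rise of 3.33 ± 0.13 (log2, SE; edgeR adjusted p = 1.86e-05). Its partner Krt18 had 553 and 648 CPM on day 5 and 53.02 and 48.1 CPM on day 2. These keratins form the filaments of simple epithelia, including both extraembryonic ones, and are not specific to either. Krt19 had 35.05 and 71.9 CPM on day 5 against 1.6 and 1.79 CPM, with Type III the higher of the day 5 pair, and Krt7, a keratin of trophoblast among other epithelia, rose by 3.38 with the same order.

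Among junction genes the claudins Cldn6 and Cldn7 rose by 3.40 and 3.27 and Ocln by 2.14 on the log2 scale, and Cdh1 and Tjp1 were among the 7 members that did not pass. The water channels diverged. Aqp8 rose from 19.2 and 17.4 CPM to 114 and 171 CPM, while Aqp3 fell from 14.4 and 13.3 CPM to 2.76 and 4.75 CPM (edgeR log2 change -1.89 ± 0.29, adjusted p = 0.00179). Aqp3 was at 448 CPM in EPSC and was lower in all 4 blastoid libraries. Atp1b1, a sodium pump subunit of the cavity-forming epithelium, rose by 2.12.

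Trophectoderm regulators did not move together. Of 17 tested, 5 were higher, 3 were lower and 9 did not pass, shares of 29.4% and 17.6% that lie near those of all genes. Without Type I 8 were higher, and without Type III 6 were lower. Cdx2, the caudal factor of the trophectoderm, had 48.2 and 30.9 CPM on day 5 and 31.5 and 29.8 CPM on day 2, and did not pass (log2 change 0.37 ± 0.21, edgeR adjusted p = 0.181). Type I lay above the other 3 libraries, and without Type III the edgeR change was 0.65. Eomes, a T-box factor of trophoblast stem cells, had 13.04 and 14.8 CPM on day 5 and 19.9 and 18 CPM on day 2. Both day 5 values were below, and Eomes just missed the threshold (edgeR adjusted p = 0.0583). It passed with other size factors and with library totals, and its change was -0.54 without Type III.

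Gata3, a further trophectoderm factor, had 2.51 and 4.59 CPM on day 5 and 6.96 and 7.55 CPM on day 2 and fell by 1.03 ± 0.34 (log2, SE; edgeR adjusted p = 0.0374), a call lost without either day 2 library. The AP-2 factors Tfap2a and Tfap2c fell by 1.23 and 0.91. Tead4, the DNA-binding partner of YAP, rose by 1.01, from 18.1 and 19.3 CPM to 43.4 and 32.03 CPM. Ets2 rose by 2.32 and the X-linked homeobox genes Rhox6 and Rhox9 by 3.25 and 2.84. Elf5, a marker of trophoblast stem cells, had 1 to 13 counts per library and was not tested. In EPSC, Cdx2 was at 0.0524 CPM, so its level in all 4 blastoid libraries was above that of the stem cells. The same held for Eomes (3.69 CPM in EPSC) and Tfap2a (4.37 CPM), but not for the other regulators named here. Tfap2c was at 76.7 CPM in EPSC, above all 4 blastoid libraries, and Gata3 at 5.71 CPM, above both day 5 values. Tead4 (30.6 CPM), Ets2 (31.7 CPM), Rhox6 (4.29 CPM) and Rhox9 (3.59 CPM) lay in EPSC between their day 2 and day 5 values.

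Genes of later placental trophoblast were divided as well. Of 18 listed, 10 could be tested, with 4 higher (40%) and 3 lower (30%), beside 25.7% and 21% of all genes, and Prl3d1, Prl2c2, Tpbpa, Ctsq and Cts7, which mark giant cells and spongiotrophoblast, had 0 counts in all 4 libraries. Plac1 had 15.3 and 15.8 CPM on day 5 and 1.85 and 1.75 CPM on day 2, and Plac8 had 68.6 and 88.3 CPM against 5.41 and 6.75 CPM. The envelope gene Synb, a syncytin, had 1.56 and 4.17 CPM on day 5 and 0 counts on day 2, at least 13.6-fold higher. The prostaglandin transporter Slco2a1 rose by 3.45. Ascl2, a spongiotrophoblast factor, fell from 12.1 and 12.4 CPM to 2.23 and 4.59 CPM, and the steroid enzyme Cyp11a1 fell by 2.48 on the log2 scale.

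The pluripotency network was lower on day 5, with Type I the lower of the day 5 pair in most members. Of 24 naive and core pluripotency genes tested, 18 were lower and 1 was higher, with a median of -1.40, and 12 were at least 2-fold lower in all 4 pairs, beside 9.01% of all genes. Type I was above Type III in 5 of the 24. Pou5f1 (Oct4) had 159.8 and 336 CPM on day 5 and 993 and 973 CPM on day 2. Sox2 had 22.9 and 62.2 CPM on day 5 and 267 and 249.6 CPM on day 2. Nanog had 33.9 and 99.5 CPM on day 5 and 176 and 175 CPM on day 2. In all 3 the lowest library was Type I, Type III lay between it and day 2, and the day 2 libraries were close to each other.

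Pou5f1 fell by 1.99 ± 0.31 (log2, SE; edgeR adjusted p = 0.00188) and Sox2 by 2.60 ± 0.40 (edgeR adjusted p = 0.00173). Nanog fell by 1.40 ± 0.41 (edgeR adjusted p = 0.0255). Nanog's fall was 2.37 without Type III and 0.82 without Type I, and it did not pass with DESeq2, at an adjusted p of 0.0809. Levels in EPSC were 1201 CPM for Pou5f1, 403 CPM for Sox2 and 640.2 CPM for Nanog. Among other members the orphan receptors Nr5a2 and Esrrb fell by 2.71 and 2.33, the TGF-beta family ligand Gdf3 by 2.53, Klf2 by 2.56, Zfp42 (Rex1) by 1.27 and Tfcp2l1 by 1.15. Klf4 was the member that rose, from 36.4 and 36.6 CPM on day 2 to 133 and 96.7 CPM on day 5, against 171 CPM in EPSC. Klf4 also acts in epithelia outside the pluripotency network.

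Formative and early epiblast genes were lower too. Of 14 tested, 9 were lower and the other 5 did not pass, with a median of -0.96. The mesoderm and epiblast factor Tcf15 fell by 3.06 and the forkhead factor Foxd3 by 2.71 on the log2 scale. Otx2, an epiblast and anterior factor, had 9.25 and 23.8 CPM on day 5 and 62.7 and 64.7 CPM on day 2, and fell by 1.95 ± 0.37 (edgeR adjusted p = 0.00443).

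Genes of the 2-cell-like state, a rare state of stem cell cultures that resembles the embryo after its first division, were lower on day 5 in every member that could be tested. All 9 fell, with a median of -2.43, and 8 of the 10 with at least 20 counts were at least 2-fold lower in all 4 pairs. Zscan4c, which belongs to a gene cluster known for telomere maintenance, had 2.01 and 7.63 CPM on day 5, 25.4 and 26.4 CPM on day 2 and 0.602 CPM in EPSC. Tmem92 had 0.362 and 0.821 CPM on day 5, 7.21 and 6.67 CPM on day 2 and 0.157 CPM in EPSC. Of the libraries given, both genes were highest on day 2, and within the blastoids they were lowest in Type I. Members of the Zscan4 and of the Usp17l clusters share most of their sequence, so reads may be divided between copies and single members are uncertain, and Type I was below Type III in all 9.

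**Figure D3:**
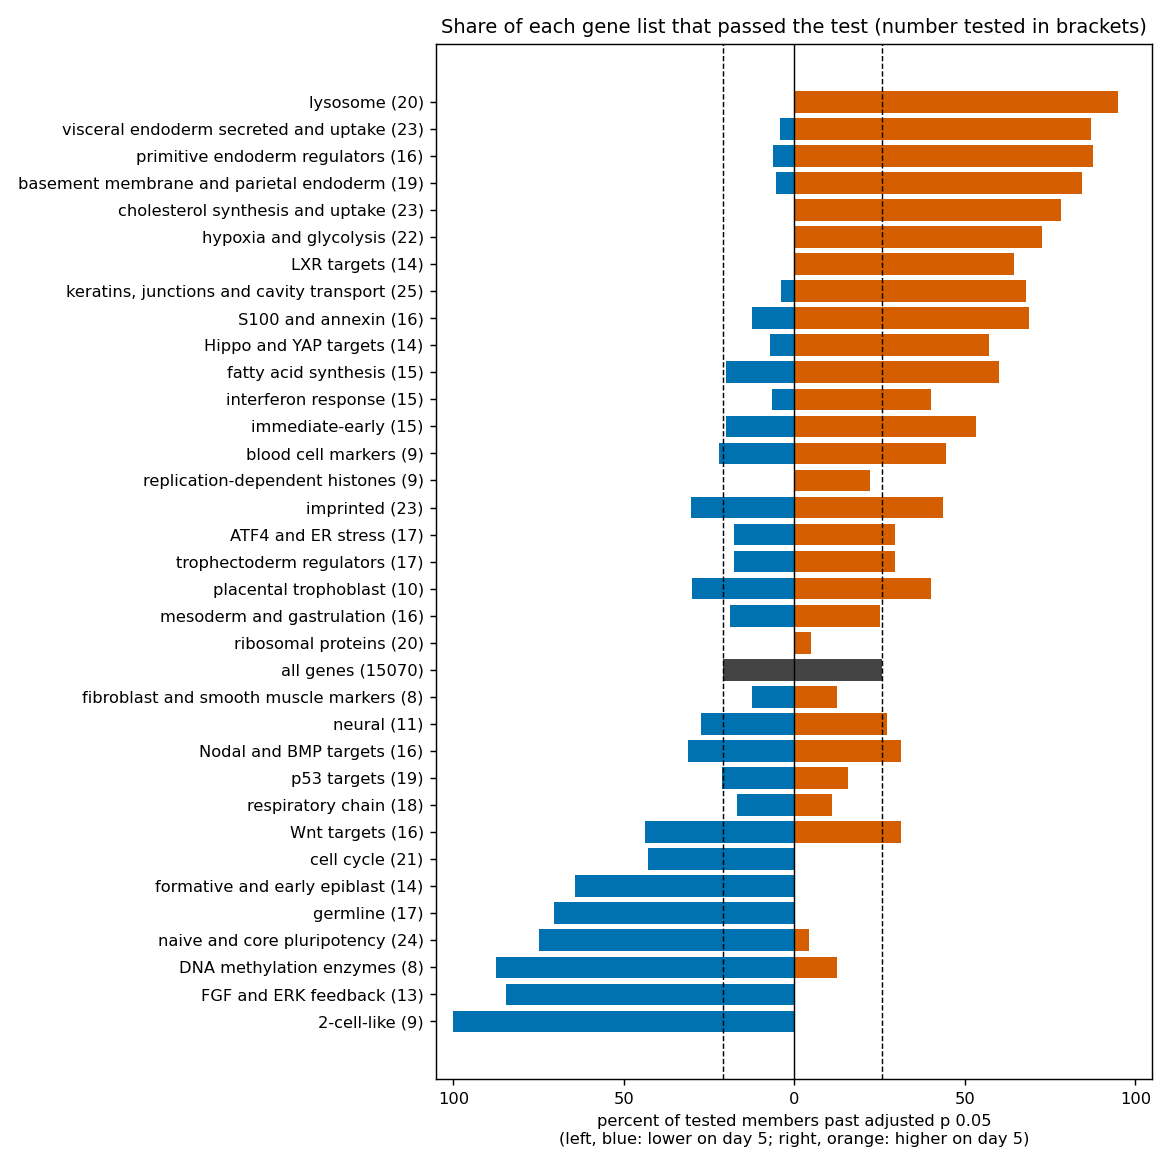
Percent of the tested members of each gene list that passed the edgeR test as higher (orange, right) or lower (blue, left) on day 5, with the number tested in brackets. The dark bar and dashed lines give all 15070 genes, 25.7% higher and 21% lower. Lysosomal and endoderm lists reach furthest to the right and the 2-cell-like, FGF and ERK feedback and DNA methylation lists furthest to the left.

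Both sides had been given FGF4 and CHIR99021, a GSK3 inhibitor that activates Wnt signalling, and the read-outs of the 2 pathways were compared. EPSC had been held in another medium, whose cocktail included PD0325901 and XAV939. The part of that medium in the EPSC levels was not tested. Feedback genes of FGF and ERK signalling were lower on day 5. Of 13 tested, 11 were lower, with a median of -1.58. Spry4, an inhibitor induced by the pathway, had 14.8 and 23.6 CPM on day 5, 153 and 158 CPM on day 2 and 32.7 CPM in EPSC, and fell by 3.02 ± 0.22 (edgeR adjusted p = 9.21e-05). The ETS factor Etv4 had 33.4 and 46.3 CPM on day 5 and 186 and 176 CPM on day 2. Both genes were lowest in Type I, and neither overlapped between days, as held for every gene that passed. The phosphatases Dusp4, Dusp5 and Dusp6 fell by 1.58, 2.10 and 1.48, Spry2 by 1.83 and Etv5 by 1.79, and the 2 members that did not pass were Spry1 and Phlda1.

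Wnt targets were divided: of 16 tested, 5 were higher (31.2%) and 7 lower (43.8%), with a median of -0.24. Of all genes, 25.7% were higher and 21% lower. Axin2, the feedback scaffold of the pathway, had 50.3 and 45.6 CPM on day 5, 95.8 and 108 CPM on day 2 and 3.85 CPM in EPSC, and fell by 1.09 ± 0.13 (edgeR adjusted p = 0.00056). The effector Lef1 fell by 2.49, the caudal factor Cdx1 by 3.21 and the cyclin Ccnd1 by 1.88. Wls, the carrier that takes Wnt ligands to the cell surface, rose by 2.32, from 27.3 and 26.4 CPM to 150.3 and 118 CPM. The receptor-degrading ligase Rnf43 rose by 2.40, the receptor Lgr5 by 2.18, Sp5 by 1.43 and the secreted inhibitor Dkk1 by 0.84.

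Of 16 Nodal and BMP genes tested, 5 were higher and 5 lower (31.2% each), beside 25.7% and 21% of all genes. With library totals 3 were higher. The higher count also moved without either day 2 library, and the lower count without Type III. The BMP targets Id1 and Id3 fell by 1.16 and 1.11: Id1 had 142 and 145 CPM on day 5 and 306 and 336 CPM on day 2. Nodal itself fell from 81.4 and 68.9 CPM to 19.4 and 30.6 CPM. Targets and components of Hippo and YAP signalling were higher in 8 of 14 (57.1%) and lower in 1 (7.14%), beside 25.7% and 21% of all genes, with a median of 0.74. The matricellular gene Cyr61 rose by 2.75, Crim1 by 3.18 and tissue factor, F3, by 2.41, whereas Ctgf had 46.2 and 46.7 CPM on day 5 and 40.3 and 43.7 CPM on day 2 and did not pass (edgeR adjusted p = 0.364).

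Mesoderm and gastrulation genes were mostly low and were divided, with 4 of 16 higher (25%) and 3 lower (18.8%), shares near the 25.7% and 21% of all genes. T (brachyury) rose from 10.1 and 11.1 CPM to 24.7 and 46.5 CPM, and Fgf8, a ligand of the primitive streak, was at 3.59 and 6.94 CPM on day 5 and at 0 and 0.152 CPM on day 2. Msgn1, a factor of presomitic mesoderm, was at 1.48 and 3.41 CPM against 0.0508 and 0.152 CPM. Type III was the higher of the day 5 pair in all 3. Evx1 fell by 1.55 on the log2 scale and Nkx1-2 by 2.11. Of 11 neural genes, 3 rose and 3 fell (27.3% each, also near all genes), and 5 fell without Type I or without Type III: Gap43 rose by 1.71, and Tubb3 and Stmn2 fell by 2.09 and 1.80.

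**Figure D4:**
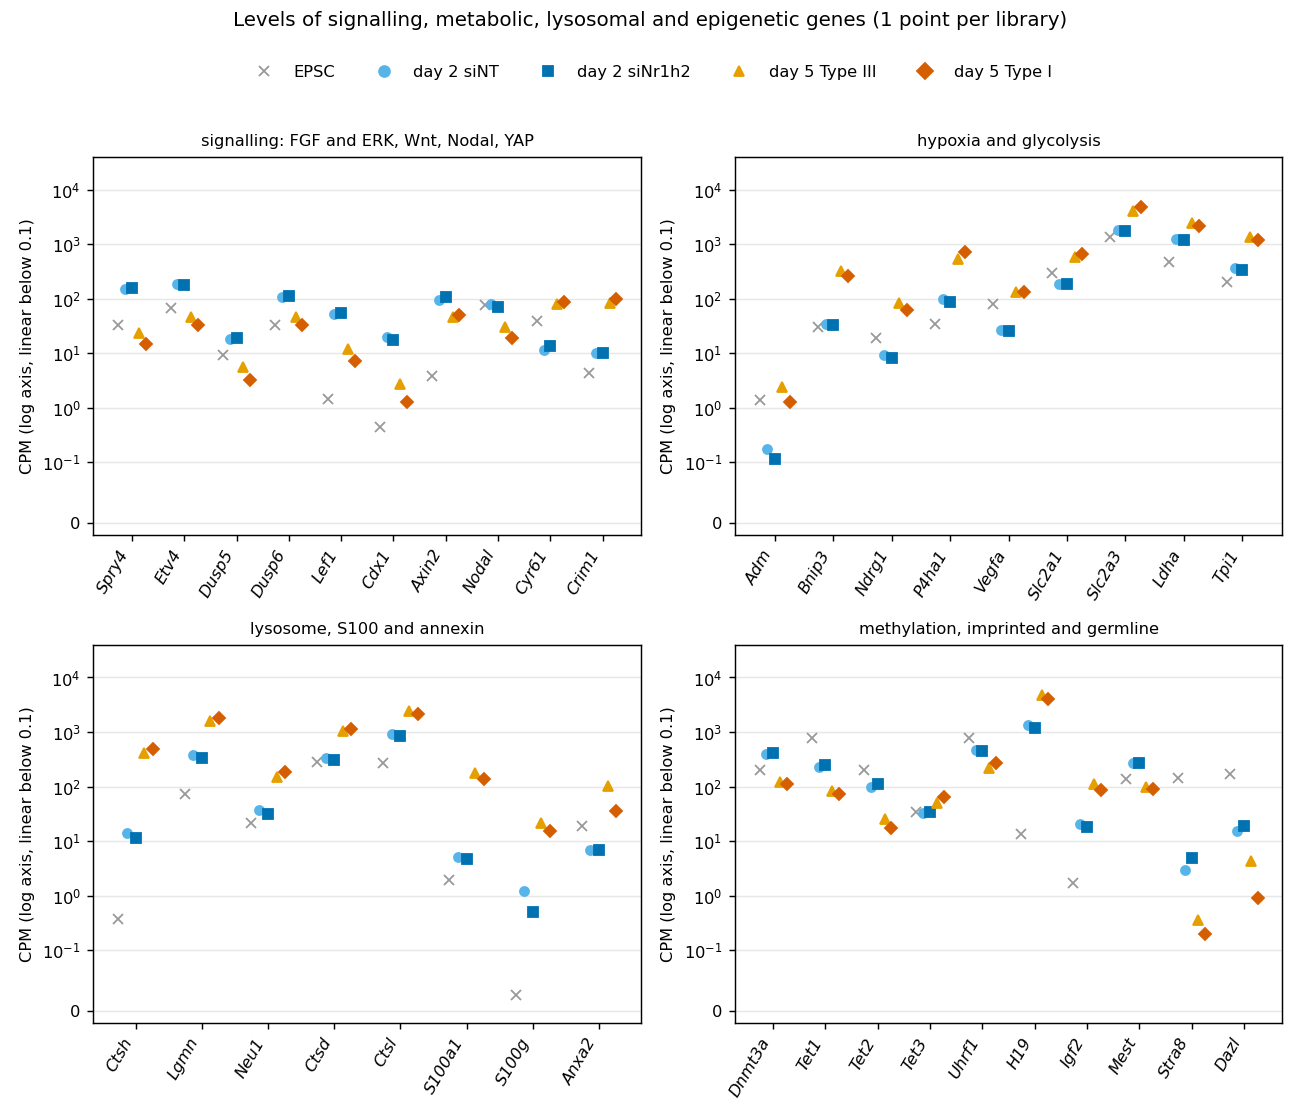
Level of signalling, hypoxia, lysosomal and epigenetic genes in EPSC (cross), day 2 (blue) and day 5 (orange) libraries, 1 point per library, in CPM on a log axis that is linear below 0.1. Spry4, Etv4, Lef1 and Cdx1 peak on day 2 among the libraries drawn, while Bnip3, Ctsh, S100a1 and Igf2 are highest on day 5.

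LXR targets were compared because T09 had been given on one side only, and the change of several rested on the Type I library. LXRs are nuclear receptors that switch on genes of sterol export and fatty acid synthesis when they bind oxysterols or agonists. Of 14 tested, 9 were higher on day 5 and 5 did not pass, with a median of 1.32. Abca1, the sterol exporter, had 207 CPM in Type I, 5.38 CPM in Type III and 3.404 and 5.07 CPM on day 2, against 18.3 CPM in EPSC and 211 CPM in T09-treated EPSC. Type III thus lay at the level of the day 2 libraries and Type I at that of the treated EPSC. The fitted rise was 4.67 ± 1.35 (log2, SE, with edgeR adjusted p = 0.0248). Without Type I it was 0.36, and with limma-voom it was 3.10 and did not pass (limma-voom adjusted p = 0.268).

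Abcg1, a related sterol exporter, had 18.7 and 1.61 CPM on day 5 and 2.95 and 3.24 CPM on day 2, so that the day 2 values lay between the day 5 values; it did not pass (edgeR adjusted p = 0.144) and its change turned to -0.94 without Type I. It passed as higher by edgeR with no count filter (edgeR adjusted p = 0.0107), while over the alternatives the adjusted p reached 0.495. The change was 2.6 without Type III, 1.65 without siNT and 1.78 without siNr1h2. Srebf1, the regulator of fatty acid synthesis that LXR induces, had 283 and 86.8 CPM on day 5 and 67.1 and 71.3 CPM on day 2, and rose by 1.42 ± 0.45 (edgeR adjusted p = 0.0343), or by 0.33 without Type I. It did not pass with DESeq2 or limma-voom. Apoe, the lipoprotein ligand, differed from these: it had 3598 and 2968 CPM on day 5 and 768 and 708 CPM on day 2 against 608 and 786 CPM in untreated and treated EPSC, and rose by 2.15 ± 0.16 (edgeR adjusted p = 0.000106). The ligase Mylip rose by 2.48, the desaturases Scd1 and Scd2 by 1.87 and 1.21, the phospholipid enzyme Lpcat3 by 1.95 and Apoc1 by 1.16. Of the 9 that rose, 6 were also at least 2-fold higher in T09-treated than in untreated EPSC. The list was made of LXR targets, and whether T09 accounts for any of these rises was not tested. Across all 7041 called genes, 369 differed at least 2-fold with T09 in EPSC, 139 of them in the direction of the day difference. In 12 of the 14 tested members Type I was above Type III. Scd1 and Scd2 are close copies, and the call of Scd2 was lost with other size factors, library totals, DESeq2 and limma-voom.

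**Figure D5:**
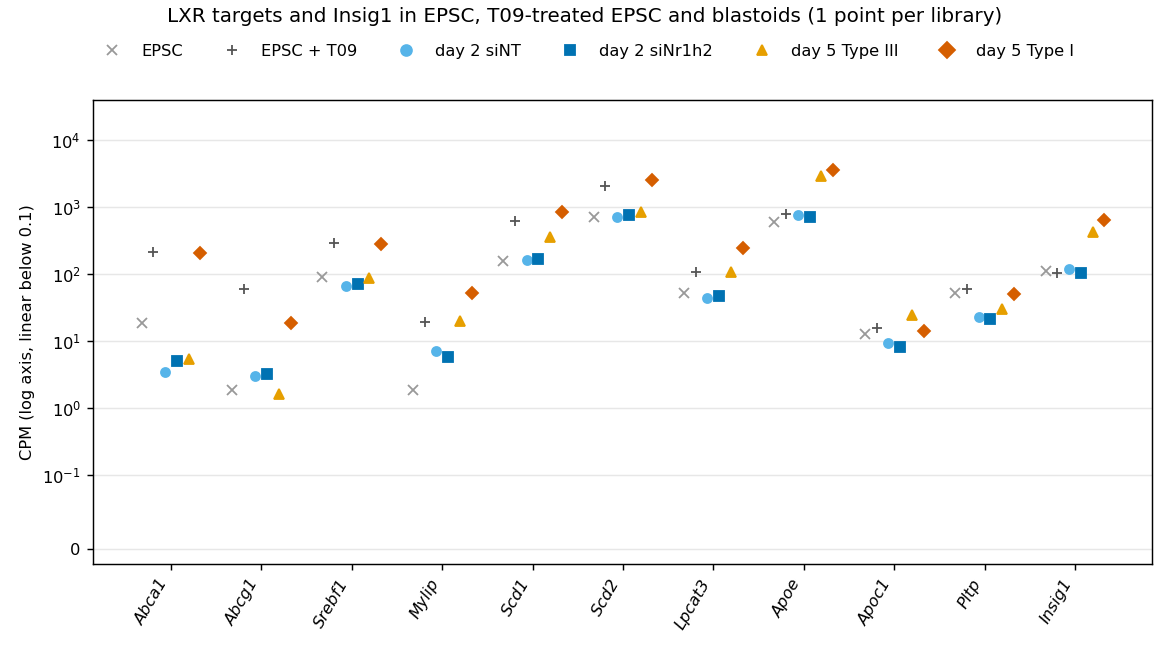
Level of LXR targets and Insig1 in EPSC, T09-treated EPSC, day 2 (blue) and day 5 (orange) libraries, 1 point per library, in CPM on a log axis that is linear below 0.1. For Abca1, Abcg1 and Srebf1 Type III lies near or below the day 2 libraries and Type I far above, while Apoe and Insig1 are higher in both day 5 libraries.

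Fatty acid synthesis genes were higher in 9 of 15 and lower in 3, with a median of 0.82; 5 were lower without Type I and 1 without either day 2 library. In the main fit the shares were 60% higher and 20% lower, beside 25.7% and 21% of all genes. Malic enzyme, Me1, had 443 and 369 CPM on day 5 and 86.1 and 82.8 CPM on day 2, a rise of 2.26 ± 0.13 (edgeR adjusted p = 5.9e-05), at 44.8 and 44.3 CPM in untreated and treated EPSC. Fasn, the fatty acid synthase, had 894 and 458 CPM on day 5 and 619 and 649.7 CPM on day 2, with the day 2 values between the day 5 values. It did not pass (log2 change 0.09, edgeR adjusted p = 0.805), and the change was -0.05 with library totals, -0.47 without Type I and 0.49 without Type III. Acacb, a carboxylase isoform, fell by 1.87. Cholesterol synthesis and uptake genes were higher in 18 of 23, the other 5 not passing, with a median of 0.60, and 2 were at least 2-fold higher in all 4 pairs. The 18 became 9 without siNT and 8 without siNr1h2. Insig1, an endoplasmic reticulum protein that restrains SREBP activation, had 636 and 423 CPM on day 5 and 118 and 102 CPM on day 2, and rose by 2.27 ± 0.20 (edgeR adjusted p = 0.000197). The sterol transfer protein Stard4 rose by 1.27.

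Hypoxia and glycolysis genes were higher in 16 of 22, the other 6 not passing, with a median of 0.92. Bnip3, a mitochondrial protein induced by low oxygen, had 264 and 322 CPM on day 5 and 34.5 and 33.3 CPM on day 2, and rose by 3.11 ± 0.14 (edgeR adjusted p = 2.49e-05). P4ha1, which hydroxylates collagen prolines, had 715 and 532 CPM on day 5 and 97.1 and 87.3 CPM on day 2. Neither gene overlapped between days, as in all genes that passed. Ndrg1 rose by 3.04, the growth factor Vegfa by 2.34, the peptide hormone Adm by 3.56, the glucose transporters Slc2a1 and Slc2a3 by 1.74 and 1.28, and the glycolytic enzymes Tpi1 and Ldha by 1.86 and 0.89, the call of Ldha being lost without siNr1h2. Respiratory chain subunits gave 2 higher (11.1%) and 3 lower (16.7%) of 18, beside 25.7% and 21% of all genes, all 5 within 2-fold. Cycs (cytochrome c) fell by 0.69, while Uqcrc1, Uqcrc2, Cox5a and Cox6a1 lost their calls without 1 or either of the day 2 libraries. Without Type I, 7 of these subunits were higher and 5 lower, and without Type III 10 were lower.

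Lysosomal genes were the list with the largest share of members higher on day 5, at 19 of 20 (95%) and a median of 1.5. Ctsh, a cathepsin, had 493 and 408 CPM on day 5, 13.8 and 11.2 CPM on day 2 and 0.367 CPM in EPSC, and rose by 5.16 ± 0.18 (edgeR adjusted p = 1.7e-05). The protease legumain, Lgmn, had 1819 and 1570 CPM on day 5 and 383 and 338 CPM on day 2. The sialidase Neu1 rose by 2.28, the membrane proteins Lamp2 and Cd63 by 1.98 and 1.85, and the cathepsins Ctsd and Ctsl by 1.77 and 1.39. Digestion of endocytosed protein in lysosomes is a known function of visceral endoderm. Calcium-binding S100 and annexin genes were higher in 11 of 16 and lower in 2, with a median of 1.38. S100a1 had 136 and 174 CPM on day 5 and 5.03 and 4.62 CPM on day 2, a rise of 5.00 ± 0.18 (edgeR adjusted p = 1.73e-05). Anxa2 had 35.9 and 102 CPM on day 5 and 6.99 and 6.94 CPM on day 2, and Type I was above Type III in 1 of the 16 tested members.

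The DNA methylation machinery was lower on day 5. Of 8 genes tested, 7 fell and 1 rose, with a median of -1.28. Dnmt3l, the cofactor of the de novo methyltransferases, had 38.6 and 80.95 CPM on day 5, 374 and 351 CPM on day 2 and 133 CPM in EPSC, and fell by 2.60 ± 0.31 (edgeR adjusted p = 0.000594). The methyltransferases Dnmt3a and Dnmt3b fell by 1.81 and 0.96, the maintenance enzyme Dnmt1 by 0.59 (a call lost without either day 2 library) and its recruiter Uhrf1 by 0.93. The demethylating dioxygenases went both ways: Tet1 and Tet2 fell by 1.59 and 2.27, and Tet3 rose by 0.76, from 33.2 and 33.6 CPM to 64.4 and 49.04 CPM.

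Imprinted genes were divided by member, with 10 higher (43.5%) and 7 lower (30.4%) of 23, beside 25.7% and 21% of all genes. More were lower without Type III. H19, a noncoding RNA, had 4068 and 4828 CPM on day 5, 1325 and 1165 CPM on day 2 and 13.7 CPM in EPSC, and rose by 1.84 ± 0.17 (edgeR adjusted p = 0.000197). Its neighbour Igf2, a growth factor, rose by 2.36, the noncoding RNAs Meg3 and Rian of 1 locus by 2.08 and 1.83, and Peg3 by 1.72. Mest fell by 1.48, from 267 and 266 CPM to 91.4 and 99.5 CPM. Germline genes, many of which depend on promoter methylation for their silence, were lower in 12 of 17, the other 5 not passing, with a median of -1.53. Dmrt1 had 2.31 and 4.41 CPM on day 5 and 39.8 and 38.1 CPM on day 2. Dazl, an RNA-binding protein of germ cells, had 0.919 and 4.38 CPM on day 5, 15.6 and 19.3 CPM on day 2 and 171 CPM in EPSC. Stra8 and Asz1 fell by 3.79 and 3.74 on the log2 scale, and Sycp3 had 17.9 and 43.6 CPM on day 5 and 15.9 and 17.7 CPM on day 2 and did not pass (edgeR adjusted p = 0.0815), with Type III alone clearly above the rest. Sycp3 passed with DESeq2 and with no count filter. Its change was 1.38 without Type I, 0.79 without siNT and 0.95 without siNr1h2.

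Cell cycle genes fell in the G1 and S phase members. Of 21 tested, 9 were lower and the other 12 did not pass, with a median of -0.38, and the 9 were the replication helicase genes Mcm2 to Mcm7, Rrm2, Ccne1 and E2f1. Without Type III 14 were lower and 1 higher, and without Type I 4 were higher. Cyclin E1, Ccne1, had 49.2 and 50.01 CPM on day 5 and 160 and 149 CPM on day 2, and fell by 1.64 ± 0.11 (edgeR adjusted p = 8.06e-05). Mcm2 fell by 1.10. Mki67, the proliferation marker, had 417 and 408 CPM on day 5 and 328 and 376 CPM on day 2. It was above on day 5 in all 4 pairs and did not pass (edgeR adjusted p = 0.163). The change was 0.22 without Type I and 0.25 without Type III. The mitotic genes Top2a, Ccnb1, Cdk1, Aurkb and Plk1 did not pass.

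Immediate-early genes were higher in 8 of 15 and lower in 3 (5 without Type III), with a median of 1.63. In the main fit the shares were 53.3% higher and 20% lower, beside 25.7% and 21% of all genes. Jun had 65.6 and 61.5 CPM on day 5 and 16.1 and 15.8 CPM on day 2, and Fosl2 had 20.6 and 19.6 CPM against 2.06 and 1.49 CPM. Egr1 was higher on day 5 than on day 2 by 1.62, but stood at 72.2 CPM in untreated and 3.04 CPM in T09-treated EPSC. Immediate-early genes are known to respond quickly to handling. The protocol text describes picking by hand on day 5, so picking and the day cannot be told apart. Genes of ATF4 and endoplasmic reticulum stress gave 5 higher (29.4%) and 3 lower (17.6%) of 17, near the shares of all genes, with Atf3 the largest rise at 3.12. Without Type I 8 were higher and without Type III 5 were lower. The p53 targets gave 3 higher (15.8%) and 4 lower (21.1%) of 19, beside 25.7% and 21% of all genes, with Btg2 the largest rise at 1.44. Leaving out 1 library gave 1 to 7 higher and 2 to 7 lower. Of 20 ribosomal protein genes, 1 was higher (Rpl10, a call lost with library totals and without either day 2 library) and 19 did not pass, and Type I was below Type III in all 20. Without Type I 17 were higher. Of 9 replication-dependent histone genes, whose copies share reads, 2 rose (22.2%, near the 25.7% of all genes) and 7 did not pass.

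Markers of fibroblasts, smooth muscle and blood cells were low in sum, but the sum of the blood markers was higher on day 5. Of 12 fibroblast and smooth muscle markers 8 could be tested, with Col1a2 higher and Fbln2 lower (12.5% each, beside 25.7% and 21% of all genes). The call of Fbln2 was lost with DESeq2 and without either day 2 library. The summed level of these markers was 13.6 and 20.6 CPM on day 5 and 18.3 and 16.7 CPM on day 2. Of 13 blood cell markers 9 could be tested, with 4 higher (44.4%) and 2 lower (22.2%), the latter Cd74 and Itgam. Their summed level was 30.2 and 16.6 CPM on day 5 and 9.30 and 10.0 CPM on day 2. Ptprc, the pan-leukocyte antigen, and the adult globins Hba-a1 and Hbb-b1 had 0 counts in all 4 libraries. Most of the day 5 sum was Hbb-bh1, an embryonic globin with 20.8 and 11.04 CPM on day 5 and 0 counts on day 2, at least 96.5-fold higher. Globin genes are close copies of each other, which makes the single values uncertain. The part of these markers in the other results was not tested.

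The genes with the largest consistent falls were of mixed function. Ttn, the giant sarcomere protein titin, had 1.75 and 1.73 CPM on day 5, 56.8 and 72.7 CPM on day 2 and 49.7 CPM in EPSC, and fell by 5.21 ± 0.20 (log2, SE; edgeR adjusted p = 1.86e-05). Halr1, a noncoding RNA next to the Hoxa cluster, had 0.585 and 2.62 CPM on day 5 and 46.4 and 47.02 CPM on day 2, and fell by 4.88 ± 0.49 (edgeR adjusted p = 0.0003). Day 5 and day 2 were far apart in both, which the naming rule selects for. Type I and Type III were alike for Ttn, and Type I was the lower for Halr1. The sarcomere genes Neb and Capn3 fell by 4.86 and 4.82 on the log2 scale, the PIWI protein gene Piwil4 by 4.67, Prrt3 by 5.32, the ciliary gene Hydin by 4.63, the endothelial receptor Robo4 by 4.27, the ATP-gated channel P2rx7 by 4.39, the neurofilament Ina by 3.94, Clca3b by 4.35 and Smtnl1 by 4.09.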

How the data were processed

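RNA sequencing of 8 mouse libraries was deposited as 1 table of raw counts per gene symbol (24888 symbols, whole numbers), and the 4 blastoid libraries are compared here. The authors made the deposited counts with STAR, Cuffnorm, HTSeq and the build mm9, per the submitters' processing notes, which give no versions or roles; the annotation and the strand setting are not given in the sources used here. Libraries were made with a directional kit, per the labels' protocols, but overlapping and antisense genes cannot be told apart unless strand was used in counting. No column belonged to no sample (0 left out).

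Counts were scaled by TMM over all 8 libraries, filtered with filterByExpr and fitted by day with edgeR's quasi-likelihood test (edgeR 4.0.16, R 4.3.3; 2 residual degrees of freedom; Benjamini-Hochberg threshold 0.05). Ratios of pairs used log2 CPM with a prior count of 2 and genes with at least 20 counts in 1 library. Medians of the 34 gene lists did not differ when genes at 0 on 1 side were put at their bound. Depth was 24666260 to 37181849 counts, and floors cover counting error only. On simulated data for this comparison (14758 genes run, 100 well counted genes changed at each fold), recovery was 78% for 2-fold and 91% for 4-fold changes, and 9 unchanged genes were called. The simulation treated the libraries of a side as repeats of 1 condition and left most genes unchanged. The data differ in both respects, so these rates need not hold for them. DESeq2 1.42.0, limma 3.58.1, other scalings, filters, folds and priors, and leaving out each library were tried as alternatives. TMM factors from the 4 libraries were chosen after seeing the data.

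The comparison and the lists were chosen with earlier results of these data known. The genes named are the 12 higher and 12 lower past the threshold, with at least 100 counts in 1 library and the largest smallest-pair ratio, leaving out predicted genes, up to 5 members of each list by the same order, and 16 fixed genes. Further members named as examples, and all genes listed without values, were chosen after their values were seen. Promoters were matched by symbol for 18150 symbols. A few list members are counted in their lists but are not reported here by name.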

Additional observations from a re-analysis of the deposited data

How the results depend on the processing

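No paired analysis was possible because each group has 1 library. Fits without 1 library take their spread from the other side alone, so their counts also depend on which spread is left. Counts of genes higher on day 5 by edgeR stayed within 1.5 times the main count under every alternative run (2624 to 4876). Of genes lower on day 5, the edgeR count was 1766 to 4744 when 1 library was left out, 1766 without siNT and 1884 without siNr1h2. Over RLE size factors, library totals, other filters, DESeq2 and limma-voom it was 2756 to 4067. The counts of genes at least 2-fold apart in all 4 pairs (1618 higher, 1334 lower) followed the fold chosen, at 2806 and 2330 for 1.5-fold and 513 and 363 for 4-fold. With at least 100 counts the lower count was 844, and leaving out 1 library gave 1512 to 2179, the highest without Type III. TMM factors from the 4 libraries gave the same edgeR counts.

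Of 68 counts of list members (34 lists, higher and lower), 20 moved by over 1.5 times without Type I, 20 without Type III, 13 without siNT and 12 without siNr1h2, and 8 or fewer under each other alternative; many of these counts are small. Cholesterol synthesis and uptake went from 18 higher to 9 and 8 without siNT and siNr1h2, and ribosomal proteins from 1 higher to 17 without Type I.

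Among the named genes, changes of sign were few and all in genes that had not passed. Lrp2 turned to -0.06 and Fasn to -0.05 with library totals. Leaving out 1 library gave -0.94 to 2.60 for Abcg1 (the lowest without Type I), -0.47 to 0.49 for Fasn (without Type I and without Type III) and -0.03 to 0.48 for Nr1h2, for which siNr1h2 is the knockdown library. The causes were not tested. With 4 libraries and 2 residual degrees of freedom, changes under 2-fold are the least secure, and genes near the floor of 3 counts give bounds only.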

Other observations

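The genes on at only 1 day are given by their count, and Tff3, Gprc6a, Hba-x, Loxl2 and the genes that follow Loxl2 were chosen after their values were seen, except the interferon response genes, which are a list. On day 2, 19 genes had 0 counts in both libraries and at least 20 in each day 5 library. They held Igfbp1, Nepn, Serpina10 and Synb, already described, and also Tff3, a secreted trefoil peptide, with 2.12 and 0.913 CPM on day 5 (at least 7.98-fold higher), and Gprc6a, an amino acid receptor, with 1.505 and 1.06 CPM (at least 9.31-fold higher). The reverse held for 3 genes, Akr1cl, Cd3e and Ifitm7, of which Ifitm7 had 1.37 and 1.07 CPM on day 2. The embryonic globins appeared together on day 5: beside Hbb-bh1, Hbb-y had 2.396 and 0.882 CPM and 0 counts on day 2, and Hba-x had 13.7 and 3.98 CPM against 0.152 and 0 CPM. Type I was the higher day 5 library for all 3, and Csf1r, a receptor of macrophages and of trophoblast, was at 1.28 and 0.973 CPM against 0.0254 and 0 CPM.

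Among well counted genes outside the lists, Loxl2, which crosslinks collagen IV, had 581 and 442 CPM on day 5 and 13.5 and 15.2 CPM on day 2. Flt1, a VEGF receptor, had 340 and 198 CPM on day 5 and 9.86 and 11.2 CPM on day 2. Cyp26a1, which degrades retinoic acid, had 98.5 and 113 CPM on day 5 and 5.16 and 3.699 CPM on day 2, while the retinoic acid receptor Rarg fell from 189 and 177 CPM to 25.1 and 35.4 CPM. The actin-severing protein Gsn rose by 4.38 on the log2 scale and the glypican Gpc3 by 3.36. Alpl, the alkaline phosphatase of pluripotent cells, fell by 2.99, the adhesion protein Pecam1 by 3.17, the branched-chain aminotransferase Bcat1 by 2.63 and the autophagy receptor Calcoco2 by 3.33. Interferon response genes were higher in 6 of 15 (40%) and lower in 1 (6.67%), beside 25.7% and 21% of all genes. With at least 100 counts 3 of 9 were higher, and with library totals, DESeq2 or limma-voom 2 were lower. Those that rose were at low levels: Isg15 had 1.11 and 1.76 CPM on day 5 and 0 and 0.0763 CPM on day 2. Usp18 had 1.39 and 2.04 CPM against 0.0508 and 0 CPM, and the RNA sensor Ddx58 fell by 1.28.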
